A study of Homo sapiens with 3 samples.

Results

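The MTRNR2L loci (MTRNR2-like, also named HN for humanin) are nuclear copies of MT-RNR2, the mitochondrial gene for the 16S ribosomal RNA. 9 of them, MTRNR2L1 to MTRNR2L8 and MTRNR2L10, were located by fixed hg19 windows of 2.5 to 4 kb, and 57 of the 271645 paired regions of double-stranded RNA (dsRNA) overlapped a window by 1 bp or more. The windows are positions, but the family was selected on the measured summits of these regions and their ratios between libraries, so both are given as a description, without a test. The regions came from HEK 293 cells, a human embryonic kidney line, with 1 library from DICER knockdown cells and 1 from wild-type cells. dsRNA was the part of total RNA that remained after digestion with the nuclease T1. A DICER chromatin immunoprecipitation (ChIP) library from wild-type cells gave 119 peaks. The labels name neither the means of knockdown nor a clone, no value for DICER1 itself was used, and the files hold no gene table from which a marker of the cell line could be read.

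Each region has a summit, the whole-number height of its read coverage, which does not depend on the region's length and is not normalized by library size. The sheet called induced was read as knockdown and the sheet called normal as wild type, from these names alone. If that reading is wrong, every direction below is the opposite. Summits added up to 84057405 in knockdown and 80502410 in wild type, with a median of 2 and 3 per region, and the total number of reads is unknown. Before ratios were taken, the summits of knockdown were multiplied by a factor that makes the sums equal, and each ratio compares these 2 libraries, not the conditions. Coordinates are those of the knockdown sheet in hg19, as deposited.

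The mitochondrial genome is copied into RNA from both of its strands, so its transcripts can pair with each other, and ribosomal RNA also folds into helices. Over evolution, pieces of mitochondrial DNA were inserted into the nuclear chromosomes, and the MTRNR2L loci are such pieces that kept the part coding for humanin, a short peptide read from within the 16S RNA and known for protecting cells from death. DICER is a ribonuclease whose substrates are dsRNA and the hairpin precursors of microRNAs. The nuclear copies resemble the mitochondrial gene and each other, and the sources used here do not say where a read that matches several copies was placed. The region lists hold 0 regions on the mitochondrial chromosome, so RNA of the mitochondrial gene and RNA of its nuclear copies cannot be told apart in these values, and the loci are not separate measurements. Whether the placing of reads bears on any ratio was not tested.

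All 9 symbols are in the RefSeq gene table (GRCh38.p14), which lists each as a pseudogene. In that table MTRNR2L3 overlaps RAE1, an mRNA export factor gene, and MTRNR2L5 overlaps PCDH15, a cadherin gene of the inner ear. MTRNR2L6 lies in the T-cell receptor beta locus (TRB). MTRNR2L8 lies between the protein-coding genes AMPD3 and RNF141, MTRNR2L1 between KCNJ18 and WSB1, MTRNR2L7 between ANKRD30A and ZNF248, MTRNR2L4 between OR2C1 and ZSCAN32, and MTRNR2L10 between VCF2 and PAGE5.

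The microRNA genes inside this family give only short stretches of its sequence. RefSeq places MIR4485 within MTRNR2L8, and MIR1973 within MTRNR2L13, a family member outside the 9. They are printed because they are the stretches of these copies that are annotated as microRNAs, the class of RNA that DICER makes. In the hairpin the capitals mark the mature microRNA, and in the mature sequences they mark the seed, bases 2 to 8. All are 5′ to 3′, from RefSeq, GRCh38.p14.
MIR4485 hairpin: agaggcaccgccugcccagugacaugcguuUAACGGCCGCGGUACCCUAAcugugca
hsa-miR-4485-3p: uAACGGCCgcgguacccuaa
hsa-miR-1973: aCCGUGCAaagguagcaua
The seeds of both mature microRNAs differ. The hairpin is 57 bases long, and its predicted fold has 15 base pairs and a free energy of -16.6 kcal/mol. The last 8 bases of the hairpin and the first 8 bases of hsa-miR-1973 are alike at 7 positions, a short match that is given only as a description. Which dsRNA region covers either microRNA gene was not read, because the gene table and the dsRNA regions are on different builds.

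The 9 loci spanned more than 3 orders of magnitude in height. MTRNR2L2 and MTRNR2L8 stood far above the rest, followed by MTRNR2L1 and MTRNR2L5. MTRNR2L6, MTRNR2L3 and MTRNR2L10 came next, and MTRNR2L4 and MTRNR2L7 were lowest. Together the 57 regions held 1.12% of the summed height in knockdown and 1.44% in wild type, of which MTRNR2L2 and MTRNR2L8 alone held 1.01% and 1.34%. The order of the highest summits was the same in both libraries except that MTRNR2L6 stood above MTRNR2L3 in knockdown and below it in wild type. With 1 library per group, whether neighbours in this order differ beyond replicate spread cannot be said.

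**Figure D1:**
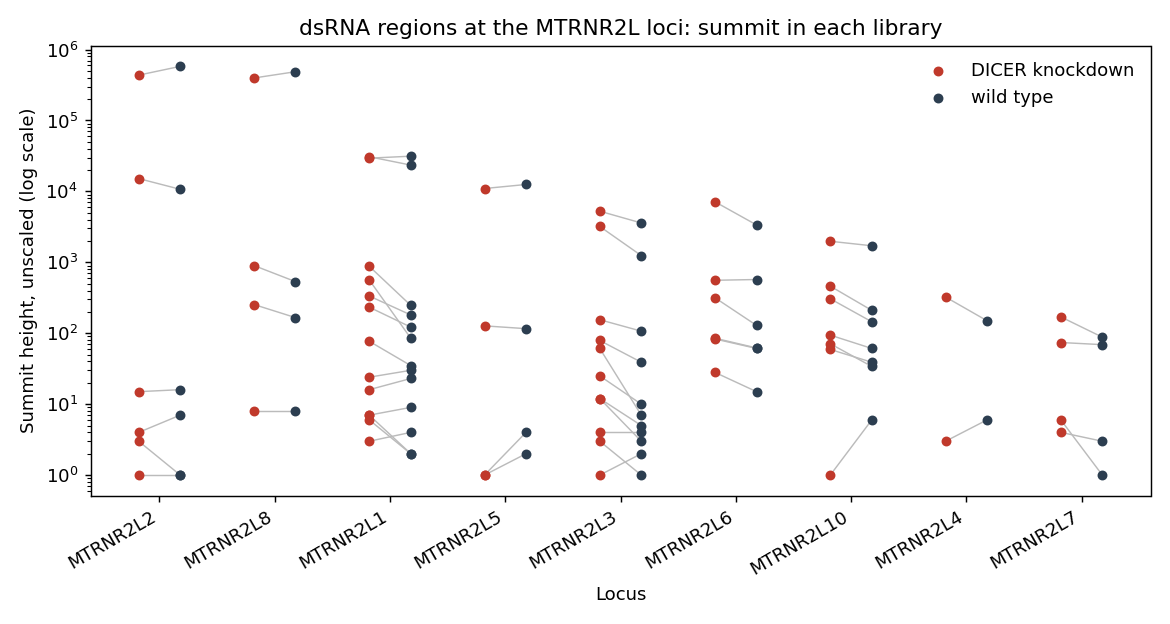
Summit of each dsRNA region at the 9 loci on a log scale, without scaling. Each point is 1 region, knockdown on the left and wild type on the right, joined by a line for the same region, with loci ordered by summed height in knockdown. The highest points of MTRNR2L2 and MTRNR2L8 slope upward to wild type (435868 against 579090 and 397162 against 486865), while most regions between 20 and 10000 slope downward.

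The highest member was at MTRNR2L2, on chromosome 5, 79946266 to 79947884. It had a summit of 435868 in knockdown and 579090 in wild type, and ranked 45th of all 271645 regions by mean summit. It was 1 unbroken region of 1618 bp in knockdown and 1642 bp in wild type. After scaling it was lower in knockdown, with a log2 ratio of -0.47 and a fold of 0.721 (95% interval for counting error only, 0.718 to 0.724). The neighbouring region at lower coordinates, 79945824 to 79946187, differed the other way. It had 15153 in knockdown and 10695 in wild type, a log2 ratio of 0.44. The other 4 regions of the window were low, with the highest of them at 15 in knockdown and 16 in wild type (79948128 to 79948210).

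MTRNR2L8 gave the other long region, on chromosome 11, 10529415 to 10531365, with 397162 in knockdown and 486865 in wild type. It measured 1950 bp in knockdown and 1952 bp in wild type and ranked 51st of all regions. Its log2 ratio was -0.36, a fold of 0.781. The 2 smaller regions beside it were higher in knockdown: 10531450 to 10531582 had 900 in knockdown and 534 in wild type (log2 ratio 0.69), and 10531590 to 10531833 had 254 and 166 (log2 ratio 0.55). The last region of the window, 10531374 to 10531432, had 8 in each library. At both of the highest loci the long region was thus lower in knockdown and its next highest neighbour higher, under the scaling to summed summits.

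That direction of the 2 long regions depended on the scaling. Their log2 ratios were -0.41 and -0.29 without scaling. They were 0.02 and 0.14 when the highest 1% of regions was kept out of the sums (reduced sums), and 0.08 and 0.19 when scaled to the median ratio of regions whose summits add up to 20 or more, so the lower level in knockdown was seen under 2 of the 4 scalings. The neighbouring regions at 79945824 and 10531450 were higher under all 4.

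MTRNR2L1, on chromosome 17, held the most regions, 13. The highest, 22021831 to 22022183, had 29400 in knockdown and 31359 in wild type, a log2 ratio of -0.16. The next, 22022566 to 22022809, had 30799 and 23490, a log2 ratio of 0.33. These 2 regions differed in opposite directions under the scaling to summed summits, with folds of 0.898 (counting interval 0.884 to 0.912) and 1.26 (1.23 to 1.28). Between them they held most of the summed height of the locus, which was 62349 in knockdown and 55589 in wild type.

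At higher coordinates, the MTRNR2L1 regions were low in wild type and differed more. The region 22022851 to 22022973 had 878 in knockdown and 247 in wild type, 3.39-fold higher (counting interval 2.95 to 3.94). The region 22023351 to 22023517 had 564 and 85, 6.29-fold higher (5.05 to 8.08). Those at 22023717 to 22023876 and 22023923 to 22024010 were 1.77-fold and 1.82-fold higher, with 335 and 233 in knockdown and 181 and 122 in wild type. These 4 regions were thus higher in knockdown, beside a pair of regions that differed less. The region 22022985 to 22023315, which lies between them, had 77 and 35, 2.08-fold higher, with a counting interval above 1. The remaining 6 regions had summits of at most 24 in knockdown and 30 in wild type. Among them were 2 of the 3 lowest ratios of those regions of the 9 loci that reach a combined summit of 20, at 22025116 to 22025236 (16 in knockdown, 23 in wild type, log2 ratio -0.56) and 22022466 to 22022529 (24 and 30, -0.37), and the counting interval of each took in a fold of 1.

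MTRNR2L5, on chromosome 10, was nearly all 1 short region, 57358064 to 57358188. It had 10978 in knockdown and 12514 in wild type, a log2 ratio of -0.25, which was 0.24 with the reduced sums. The next region, 57359182 to 57359252, had 127 in knockdown and 116 in wild type. Its counting interval, 0.809 to 1.36-fold, took in no difference. The remaining 2 regions had 1 each in knockdown, and 4 and 2 in wild type.

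MTRNR2L6, on chromosome 7, was higher in knockdown at its highest region. That region, 142373940 to 142374044, had 7123 in knockdown and 3365 in wild type, 2.03-fold higher (1.95 to 2.11). The region beside it, 142373458 to 142373815, had 558 and 572, a fold of 0.934 whose counting interval, 0.830 to 1.05, took in no difference. The third, 142375324 to 142375520, had 316 and 129, 2.34-fold higher. The other 3 regions of MTRNR2L6 had 28 to 85 in knockdown and 15 to 62 in wild type.

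MTRNR2L3, on chromosome 20, had 11 regions. The 6 whose summits add up to 20 or more all had a log2 ratio above 0, as did 26.9% of all regions of that height. The highest, 55934181 to 55934310, had 5256 in knockdown and 3587 in wild type, a log2 ratio of 0.49. The next, 55935348 to 55935426, had 3201 and 1244, 2.46-fold higher (2.31 to 2.63). The largest ratio of all 9 loci was here too, at 55933571 to 55933667, but on low heights of 61 in knockdown and 7 in wild type (7.43-fold, counting interval 3.81 to 21.6). The region 55935472 to 55935632 had 155 and 107.

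MTRNR2L10, on chromosome X, had its highest region at 55208415 to 55208635, with 1980 in knockdown and 1711 in wild type, 1.11-fold higher (1.04 to 1.18). The smaller regions around it differed more. The region 55208053 to 55208155 had 461 in knockdown and 210 in wild type, and 55208976 to 55209060 had 306 and 145, 2.10-fold and 2.01-fold higher. All 6 regions of this locus that reach a combined summit of 20 had a log2 ratio above 0, as did 26.9% of all regions of that height. The lowest of them in height, 55209080 to 55209157, had 59 and 39, and its counting interval, 0.951 to 2.23-fold, took in no difference.

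MTRNR2L4 and MTRNR2L7 were the lowest loci. MTRNR2L4, on chromosome 16, had 1 region of note, 3421958 to 3422077, with 324 in knockdown and 150 in wild type, 2.06-fold higher (1.70 to 2.53). The other region of its window had 3 and 6. MTRNR2L7, on chromosome 10, had 170 in knockdown and 88 in wild type at 37891085 to 37891179 (1.84-fold higher), and 74 and 69 at 37891549 to 37891617. The summed height of MTRNR2L7 was below that of MTRNR2L4 in knockdown (254 against 327) but above it by 5 in wild type (161 against 156).

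**Figure D2:**
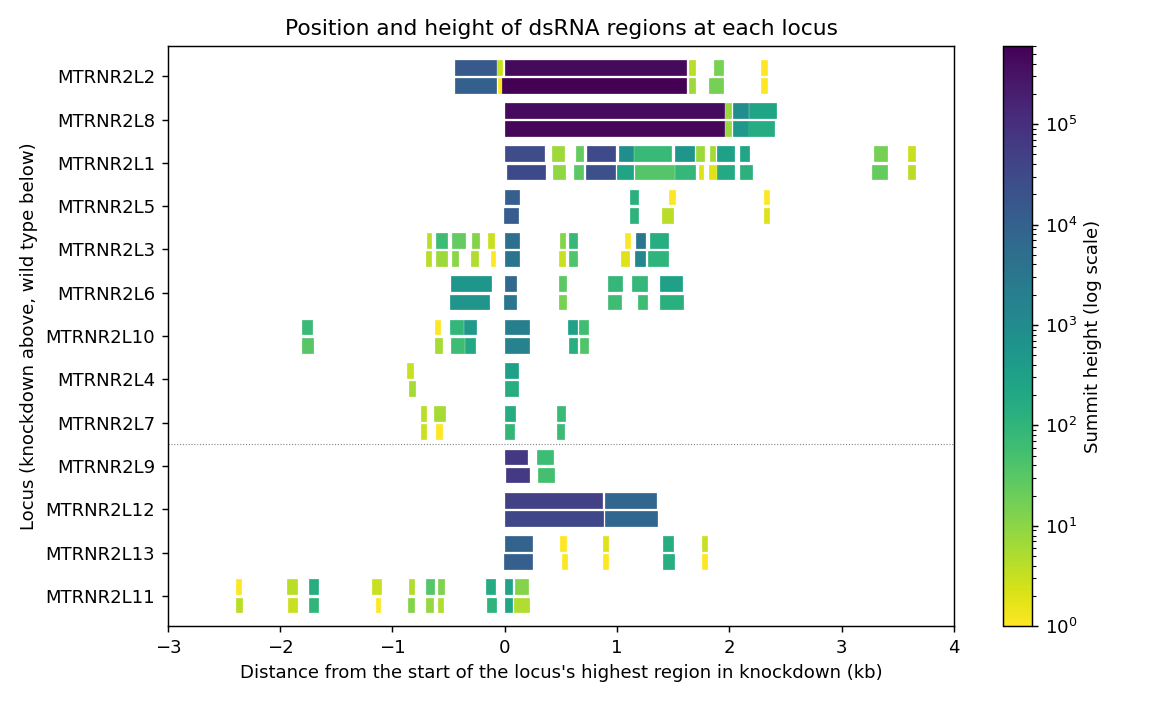
Each coloured bar is a dsRNA region at its distance in kb from the start of the locus's highest region, with knockdown above and wild type below in each row and colour giving the summit on a log scale. The 4 rows under the dotted line are family members outside the 9. The highest regions of MTRNR2L2 and MTRNR2L8 are long unbroken bars (1618 bp and 1950 bp in knockdown), while the other 7 of the 9 are broken into short regions. Both ends lay within 10 bp of each other between the libraries in 31 of the 57 regions of the 9 loci.

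Over the 9 loci, 38 regions reached a combined summit of 20 and 19 did not. The 19 had summits of at most 12 in knockdown and 9 in wild type. Of the 38, 11 were higher in knockdown by 2-fold or more, against 5.07% of all 35876 regions of that height, and 0 were lower by 2-fold or more, against 30.8%. In all, 30 were higher by any amount (26.9% of all regions were) and 8 were lower (73.1%). This split was 37 to 1 with the reduced sums (47.7% and 52.3% of all regions) and with the median ratio (49.6% and 49.8%), and the count higher by 2-fold was then 21 (11.5% of all) and 23 (12.8%). The counting interval of the fold lay above 1 in 24 of the 38 (8.15% of all regions), below 1 in 4 (36.3%), and took in 1 in 10 (55.5%). The median log2 ratio of the 38 was 0.55, beside -0.53 over the 35876. Since the family was chosen with its values known, nothing is read from these shares. The regions of copies that resemble each other do not count as separate measurements. There is no replicate, so these counts compare 2 libraries and carry no p-value.

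The ratio differed with level among the members, without a steady trend. The 6 members with a mean summit below 3 had a median log2 ratio of -0.32 (all regions at that level -0.04). The 13 from 3 to below 10 had a median of -0.05 (all regions -0.78). In that class a ratio of at least 2-fold in favour of knockdown was seen in 5 members, on heights of at most 12. Among all regions at that level the share was 6.50%. The 5 from 10 to below 30 had a median of -0.15 (all regions -0.68), with 2 higher and 3 lower, and 24.2% of all regions higher. From 30 to below 100 the median was 0.55 (all regions -0.41), and all 9 members were higher in knockdown, as were 26.9% of all regions at that level. From 100 to below 1000 it was 0.87 (all regions -0.21), with 13 of 14 members higher and 36.8% of all regions. From 1000 to below 10000 it was 0.75 (all regions 0.05), with 4 of 4 members and 53.1% of all regions higher. At 10000 or more it was -0.20 (all regions -0.02), with 2 of 6 members and 48.7% of all regions higher. Nothing is read from these shares either. With the reduced sums, the members' median was above 0 in every class from a mean summit of 3, and it was 0.29 for the 6 highest, below the 0.47 of all regions at that level.

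**Figure D3:**
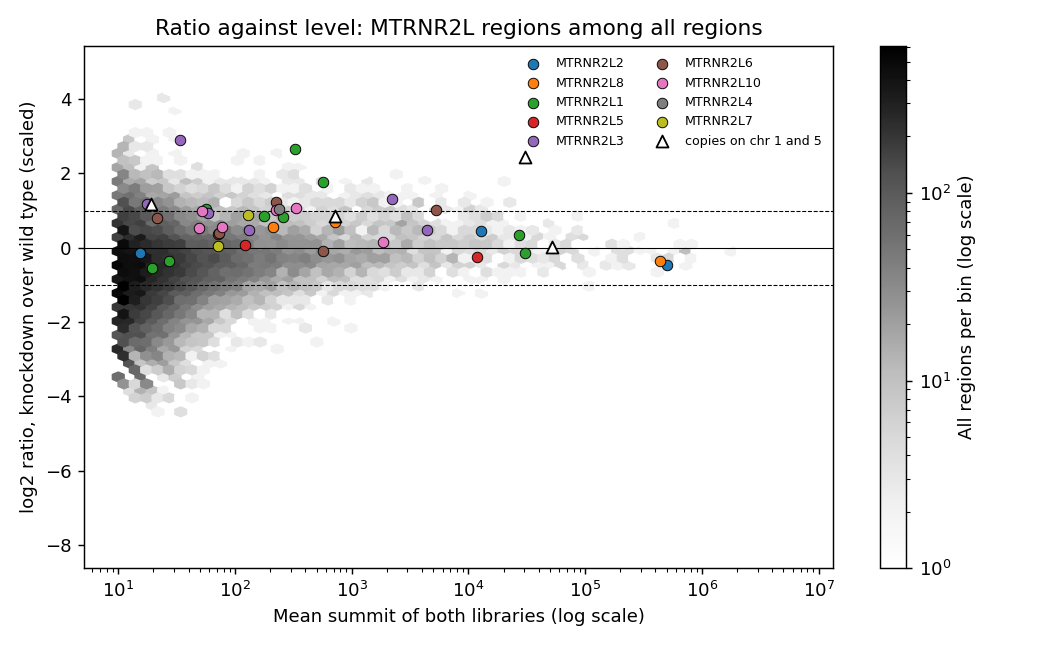
log2 ratio of knockdown over wild type, scaled to summed summits, against the mean summit on a log scale. Grey cells count the 35876 regions that reach a combined summit of 20, circles are the 38 member regions coloured by locus, triangles are the nuclear copies on chromosomes 1 and 5, and dashed lines mark 2-fold. The members between 30 and 10000 lie mostly above 0, and MTRNR2L2 and MTRNR2L8 at the far right lie at -0.47 and -0.36.

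Counted by locus, the summed height was higher in knockdown at 6 of the 9 and lower at 3. The 6 were MTRNR2L4 (2.01-fold), MTRNR2L6 (1.87-fold), MTRNR2L3 (1.68-fold), MTRNR2L7 (1.51-fold), MTRNR2L10 (1.29-fold) and MTRNR2L1 (1.07-fold), and they were higher under all 4 scalings. The 3 were MTRNR2L2 (0.732), MTRNR2L8 (0.782) and MTRNR2L5 (0.842), and of the 4 scalings they were lower without scaling and with scaling to summed summits, and higher with the other 2. The sum over all 9 loci, 943379 in knockdown and 1157344 in wild type, gave a log2 ratio of -0.36, which was -0.29 without scaling, 0.13 with the reduced sums and 0.19 with the median ratio. These sums cover 9891 bp in knockdown and 9908 bp in wild type, a mean summit of 16551 and 20304 per region. Without MTRNR2L2 and MTRNR2L8, an alternative added after seeing the data, the sums were 94011 and 79961 and the log2 ratio was 0.17. Under the scaling to summed summits, the sum over the family thus had the direction of its 2 highest loci.

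**Figure D4:**
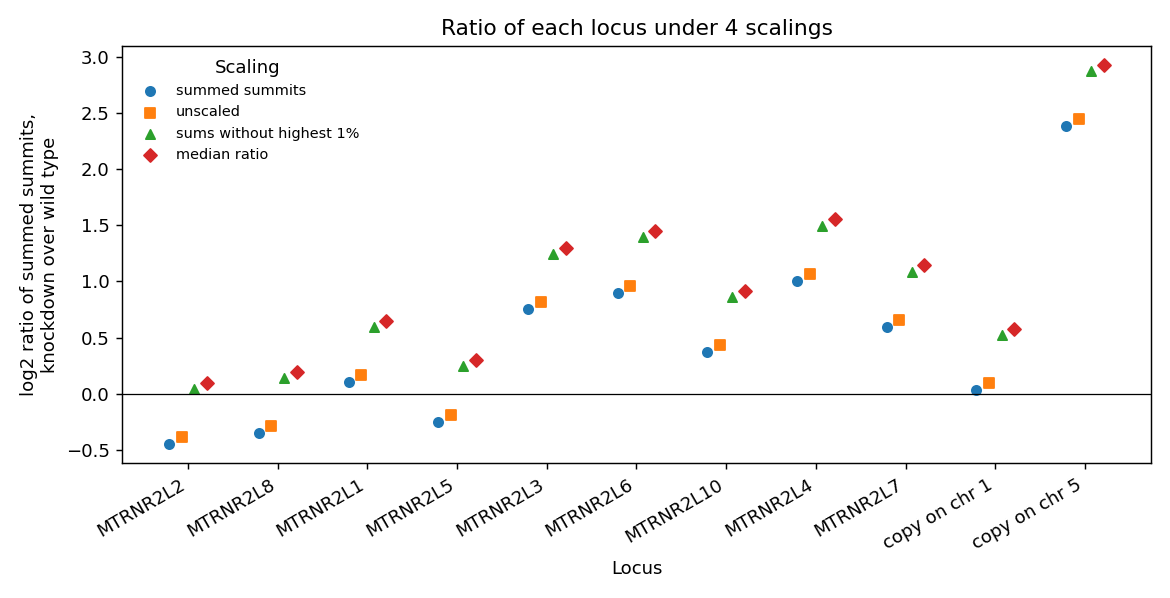
log2 ratio of the summed summits of each locus, knockdown over wild type, under 4 scalings (symbols), for the 9 loci ordered by height and the nuclear copies on chromosomes 1 and 5. MTRNR2L2, MTRNR2L8 and MTRNR2L5 change sign between scalings, the other 6 loci stay above 0, and the copy on chromosome 5 is highest at 2.38 to 2.93.

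Both ends of a region lay within 10 bp of each other between the libraries in 23 of the 38 members (60.5%) and in 38.3% of all 35876 regions. At a mean summit of 100 or more the shares were 62.5% of 24 members and 56.0% of 4603 regions. The median width of the 38 was 121 bp in knockdown and 119 bp in wild type, while over all 35876 it was 108 bp and 119 bp. Among the 38, 19 were wider in knockdown, 18 narrower and 1 equal, and over all 35876 regions 36.9% were wider and 58.6% narrower.

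At each of the 9 loci, the surroundings had a lower summed height than the window, by differing amounts. Within 50 kb on each side, all other regions together had summed summits of 1209 in knockdown and 795 in wild type at MTRNR2L1, 150 and 149 at MTRNR2L2, and 15 and 9 at MTRNR2L8. At MTRNR2L10 they had 550 and 402, beside 2972 and 2206 in the window, and at MTRNR2L4 33 and 36, beside 327 and 156. No region lay within 50 kb of the MTRNR2L7 window. The nearest region of some height outside a window was 254 bp from that of MTRNR2L10, with 498 in knockdown and 329 in wild type, and another was 344 bp from that of MTRNR2L1, with 731 and 313. At the inner edge, the highest region of MTRNR2L1 and the region of MTRNR2L6 with 558 and 572 each reach over the window's start and were counted as members. Around MTRNR2L3, inside RAE1, the highest other region within 50 kb had 10 in knockdown and 17 in wild type.

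The deposited final set held 1003 of all 271645 regions, and its lowest summit in either library was 1506. Of the 57 members, which were chosen with their heights known, it held 9 at 7 loci. They were 2 regions each of MTRNR2L1 and MTRNR2L2 and the highest region of MTRNR2L3, MTRNR2L5, MTRNR2L6, MTRNR2L8 and MTRNR2L10. The member just inside was that of MTRNR2L10 (1980 in knockdown, 1711 in wild type). The member just outside was the MTRNR2L3 region at 55935348, with 3201 in knockdown and 1244 in wild type.

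The nuclear copy on chromosome 1, an insertion that holds other mitochondrial genes, was 1 region of 5864 bp in knockdown with a log2 ratio of 0.03, between those of MTRNR2L1 and MTRNR2L5 in ratio of sums. The copy on chromosome 5, 93903000 to 93907000, had a larger ratio than any of the 9 loci, with summed summits of 53057 in knockdown and 9768 in wild type, 5.20-fold. That came from 1 region of 163 bp. Its next highest region, 93906467 to 93906537, had 936 in knockdown and 492 in wild type, 1.82-fold higher, and the third, 93903238 to 93903299, had 27 and 11. Whether this copy differs from the family was not tested, since 1 library per group allows no test.

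The family has 4 further members, MTRNR2L9, MTRNR2L11, MTRNR2L12 and MTRNR2L13, which were placed in hg19 from general knowledge and not from an annotation used here. MTRNR2L9, on chromosome 6, had 70508 in knockdown and 64434 in wild type at 62284012 to 62284209. MTRNR2L12, on chromosome 3, had 46246 and 34698 at 96336033 to 96336903, and MTRNR2L13, on chromosome 4, had 9088 and 11222 at 117219368 to 117219606. All 3 lay between MTRNR2L8 and MTRNR2L6 in height, so the 9 loci do not hold all of the high members of the family. MTRNR2L11, on chromosome 1, was low, with 272 and 227 at its highest region. The summed height was higher in knockdown at MTRNR2L9 (1.05-fold), MTRNR2L11 (1.34-fold) and MTRNR2L12 (1.22-fold), and lower at MTRNR2L13 (0.780), where the direction depended on the scaling as at MTRNR2L5.

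A DICER peak lay at 1 of the 9 loci. At MTRNR2L6, chromosome 7, 142375332 to 142375541 (counted from 1), the peak scored 213.7, the 23rd highest of 119 by the authors' score. It covered the region with 316 in knockdown and 129 in wild type, and not the highest region of the locus. This was 1 of 57 members, while 115 of all 271645 regions (0.0423%) had a peak. All regions had a median summit of 2 in knockdown and 3 in wild type, against 77 and 39 for the members. The share among regions as high as the members was not computed, and nothing is read from these shares. Members were matched to peaks on the joint span of both sheets, and all regions on wild-type coordinates alone. No peak lay at MTRNR2L2 or MTRNR2L8, nor at the copies on chromosomes 1 and 5. The list holds 1 peak on the mitochondrial chromosome, 1874 to 4089, with a score of 121.7, close to the list's median of 127.0. By general knowledge of that chromosome it covers most of the 16S ribosomal RNA gene MT-RNR2 and most of MT-ND1, a subunit of respiratory complex I. No input library was analysed here.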

How the data were processed

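Members and lists were chosen with earlier results of these data known. Per the submitters' processing notes, bcl2fastq 1.8.4 and BWA 0.7 belong to dsRNA and Bowtie 0.12.7 and MACS 1.4 to ChIP, all with hg19. The sources used here do not say how regions were called. The deposited summit is a coverage signal, not normalized. The deposited peak score is the authors' own. Both dsRNA samples carry the same workbook, read once.

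Sheets were paired by row. Knockdown summits were multiplied by 0.958, the wild-type sum over the knockdown sum, and the log2 ratio was computed with a pseudocount of 1. Folds of single regions carry the pseudocount, while folds of sums do not. Counts took regions whose summits add up to 20 or more, with 2-fold as the call. Counting intervals are exact 95% binomial (Clopper-Pearson) intervals on the unadjusted summits, taking height as reads over 1 base. They cover counting error only, and amplified reads are not independent molecules. Named regions were the highest by mean summit, up to 3 a locus and 6 at MTRNR2L1, MTRNR2L2 and MTRNR2L8. The 3 highest and 3 lowest ratios were named too. Beyond this rule, the regions at 22022985 (MTRNR2L1) and 55209080 (MTRNR2L10) were also named. Regions of the window edges and of the other family members were added after their values were seen. The neighbours of MTRNR2L2 are not reported here. The list of humanin partner genes could not be used without an hg19 annotation. The calculation of ratios was checked on simulated data, which is no test of the ratios themselves. Folding used RNAfold 2.7.2. Analysis used Python 3.11.15, pandas 2.3.3 and scipy 1.17.1.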

Additional observations from a re-analysis of the deposited data

How the results depend on the processing

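Depth is unknown, and few regions carry the sums used for scaling. Relative to the main scaling, the factor is higher by 0.06 (log2) unscaled, 0.49 with the highest 1% of regions kept out of the sums (reduced sums) and 0.55 with the median ratio. The log2 ratio of the sum over the 9 loci was -0.36. It was -0.29 unscaled, 0.19 scaled to the median ratio, 0.13 with the reduced sums, -0.33 for summit times width, 0.45 without the highest region of each locus, and 0.17 without MTRNR2L2 and MTRNR2L8. The median over the 38 regions was 0.55, and it was 1.10 with the median ratio and 1.04 with the reduced sums. The count higher by 2-fold was 11 (5.07% of all regions), and it was 23 (12.8%) and 21 (11.5%) under these scalings. It was 8 without MTRNR2L1 (beside the same 5.07% of all regions), 8 with a pseudocount of 10 and 16 with no minimum summit. The count lower by 2-fold was 0 (30.8% of all regions), and it was 2 with no minimum summit. The share over all regions was not computed for a pseudocount of 10, nor for no minimum summit in either count. Without its highest region, MTRNR2L4 had a log2 ratio of -1.06, on summits of 3 in knockdown and 6 in wild type. The count of DICER peaks stayed at 1 with windows widened by 1 kb and with peaks of at least the median score. Leaving out MTRNR2L2 and MTRNR2L8, or MTRNR2L1, was chosen after seeing the data. No paired analysis was possible because there is only 1 library in each group.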
